A study of Mus musculus with 44 samples.

Results

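Nuclei labelled D2 from the nucleus accumbens of male mice were compared between a vector carrying retinoid X receptor alpha (RXRa) with EGFP and a vector carrying EGFP alone. The comparison used 9 of the 44 samples of the series, 4 RXRa libraries (replicates 1, 2, 3 and 5) and 5 EGFP libraries (replicates 1 to 5), chosen by their sample names and labels and not by any measured value. Neither the age, the strain nor the Cre driver line of the mice is given in the labels. The virus was AAV9-CAG-DIO-EGFP-P2A-RXRa in the RXRa group and AAV9-CAG-DIO-EGFP in the control group, both infused into the nucleus accumbens. CAG is a strong promoter active in most cell types, DIO is an insert that Cre recombinase turns into reading orientation, and P2A is a peptide that lets EGFP and RXRa be made from the same transcript. All groups used here therefore carried a virus and an EGFP insert, and no group without virus was among the sorted libraries. The labels do not say whether each library is 1 animal or a pool, so p-values measure the spread between these libraries, which may be in part technical.

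RXRa is a nuclear receptor, a transcription factor that binds DNA as a partner of other nuclear receptors, among them the retinoic acid, vitamin D, thyroid hormone, liver X and peroxisome proliferator-activated receptors. With retinoic acid receptors it binds paired hexamer repeats in the promoters of retinoid target genes, of which Rarb is a classical example. D2 neurons are the projection neurons of the striatum that express the dopamine receptor gene Drd2. They also make enkephalin from Penk and the adenosine receptor Adora2a, and respond to dopamine with reduced cyclic AMP signalling.

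The vector sequences matched the labels. In CPM (counts divided by the TMM-scaled library size, with the vector entries left out of it), the vector RXRa was at 134, 256.2, 589.9 and 617.6 in RXRa replicates 1, 2, 3 and 5. The 5 EGFP libraries had 0 to 0.3952 CPM, from 0 to 5 counts, and the groups did not overlap. The difference in mean log2(CPM + 1) was 8.18 (exact two-sided permutation p = 0.007937, the smallest that 4 against 5 libraries allow, and 0.02381 after Benjamini-Hochberg adjustment over 3 single values tested). Vector GFP was at 437.9, 307.8, 196.9, 756.5 and 342.7 CPM in EGFP replicates 1 to 5 and at 138.2, 279.3, 535 and 673.3 CPM in the RXRa libraries. The ranges overlapped in part, with RXRa replicate 1 below every EGFP library and EGFP replicate 4 above every RXRa library, and a difference of -0.10 on the same scale (exact two-sided permutation p = 0.8651). RXRa replicate 1 had the lowest level of both vector sequences, and the ratio of vector RXRa to vector GFP counts lay between 0.9172 and 1.103 in the 4 RXRa libraries.

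Endogenous Rxra (ENSMUSG00000015846, chromosome 2, 27676440 to 27762957, plus strand, GRCm38) was at 42.97, 30.4, 38.42, 34.54 and 37.95 CPM in the EGFP libraries and at 41.28, 39.13, 26.65 and 35.33 CPM in the RXRa libraries. On the log2 scale edgeR gave -0.05 (SE 0.11, adjusted p = 0.8507) and its level was 0.845 times the background described next, so expression from the endogenous gene was not detectable above that background in these libraries. The sign of that value rested on single libraries, being 0.01 without EGFP replicate 1 and 0.05 without RXRa replicate 3.

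A uniform background lay under the genes. Its yardstick was a set of 1576 protein-coding genes on autosomes, each 5 kb or longer and without a count in the 8 bulk libraries of the series, summarised as their median CPM divided by gene-body length in kb. This silent-gene density was 0.5335, 0.5485, 0.5266, 0.5502 and 0.4802 CPM per kb in EGFP replicates 1 to 5, and 0.5141, 0.4369, 0.48 and 0.3983 in RXRa replicates 1, 2, 3 and 5. RXRa replicate 1 lay among the EGFP libraries, RXRa replicate 3 was level with EGFP replicate 5, the lowest of the controls, and RXRa replicates 2 and 5 lay below all of them. The mean was 0.4573 ± 0.05046 (SD, n = 4) with RXRa and 0.5278 ± 0.02842 (SD, n = 5) with EGFP, a ratio of geometric means of 0.864 (exact two-sided permutation p = 0.03175, adjusted 0.04763). This p was 0.05714 without EGFP replicate 1, 2, 3 or 4 and 0.07143 without RXRa replicate 5, so the call rested on single libraries. Within a library, counts of these genes followed the length of the gene body (r = 0.7483 to 0.7739 across genes, on log scales) and hardly the exonic length (r = 0.02977 to 0.08226). Extended over the 1222 Mb covered by annotated genes, the background came to 60.04 to 70.55% of all counts in the EGFP libraries. In RXRa replicates 1, 2, 3 and 5 it came to 66.45, 54.64, 49.96 and 40.68%. The source of the background was not tested.

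**Figure D1:**
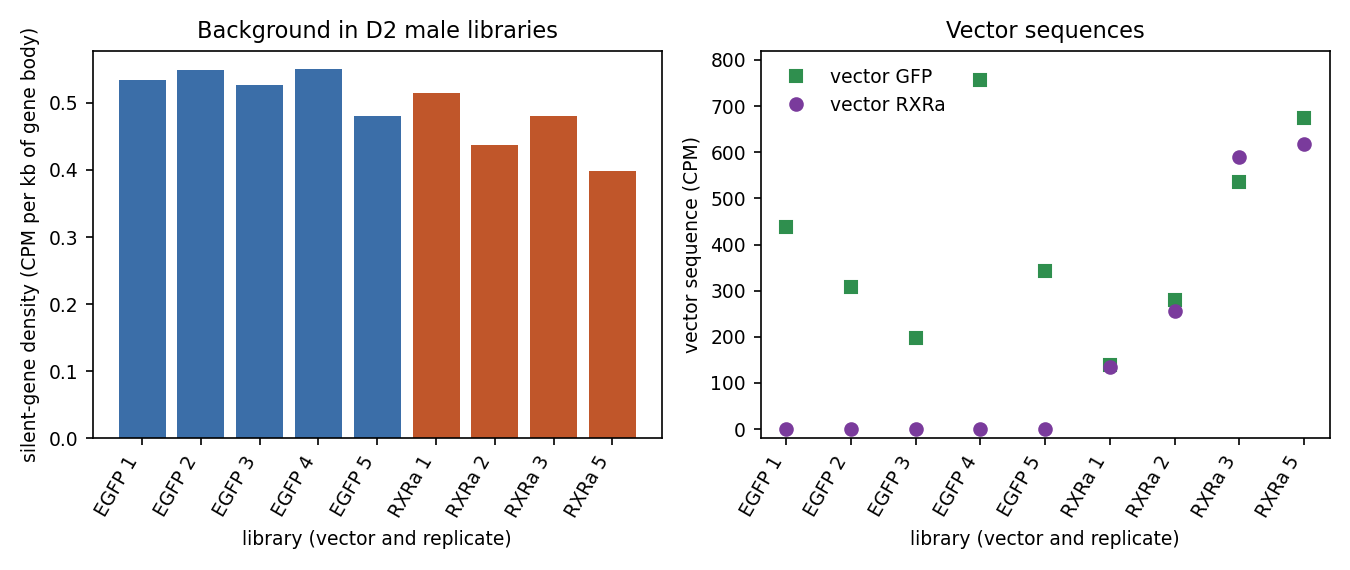
Left, silent-gene density (CPM per kb of gene body) as bars in each of the 9 D2 male libraries, EGFP in blue and RXRa in orange; right, vector GFP (green squares) and vector RXRa (purple circles) in CPM. RXRa replicate 1 has a density of 0.5141, within the EGFP range of 0.4802 to 0.5502, and the lowest vector levels of the RXRa group.

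Each gene was therefore read against the count expected from that background over its own length. Of 43902 genes tested, 4480 (10.2%) had a mean level over the 9 libraries at least 3 times this expectation and are called above background here. At 2 times the number was 9502 and at 5 times 2148. Total counts were 12499994 to 16493180 in the EGFP libraries and 15593389 to 21388529 in the RXRa libraries, and 51926 to 53877 genes had a count. A pair of libraries stood apart from the rest of their groups. EGFP replicate 4 had 57.55 CPM of the astrocyte gene Apoe against 4.981 to 13.52 in the other EGFP libraries, and it was also the highest of its group for mt-Co1, Igkc, Npas4 and Arc. RXRa replicate 1 had the least vector and the highest background of its group, and values without either library are given where they change a call or move a named value most.

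The D2 label held against its markers. Over both vectors, Drd2 was higher in the 9 D2 male libraries than in the 9 D1 male libraries by 3.64 on the log2 scale (SE 0.17, edgeR adjusted p = 2.563e-17), Penk by 2.61 (SE 0.35, 2.105e-05), Gpr6 by 2.38 (SE 0.30, 7.727e-06) and Adora2a by 2.05 (SE 0.20, 1.853e-08). The D1 marker Drd1 was lower by 1.58 in the D2 libraries, with a log2 difference of -1.58 (SE 0.24, adjusted p = 0.0002223), and Tac1, which encodes substance P, had -0.50 (SE 0.23, adjusted p = 0.2753). In all, 109 genes (0.248%) passed an adjusted p of 0.05 in this contrast. That number was 4398 without RXRa replicate 1, 61 to 151 without any other D2 library, 470 with library totals and 336 with DESeq2. Relative to background, which takes gene length into account, Penk stood at 193.2 times, Drd2 at 26.27, Gpr6 at 25.88 and Adora2a at 8.543 times, while Drd1 was at 8.276 and Tac1 at 5.503 times. Of 43 markers of cortical, astrocyte, oligodendrocyte, oligodendrocyte precursor, microglial and endothelial cells, 1 was above background. With RXRa 1 was higher and 3 were lower at an unadjusted p under 0.05, against 12% and 7.72% of all genes. The astrocyte gene Apoe, on another list, stood at 12.79 times background. It was higher in D2 than in D1 male libraries by 1.59 (SE 0.35, edgeR adjusted p = 0.03848), with EGFP replicate 4 the highest D2 male library. Here and below, genes given only as those behind a small count are outside the naming rule and were named after their values were seen.

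The question of the comparison is how RXRa overexpression changed the transcriptome of D2 neurons. No gene passed an adjusted p of 0.05 in edgeR's quasi-likelihood test (0 of 43902, 0%), with a lowest adjusted p of 0.132. DESeq2 gave 23 genes, 15 higher and 8 lower, and limma voom 1, which was lower. An unadjusted p under 0.05 was reached by 8657 genes (19.7%), of which 5268 (12%) were higher and 3389 (7.72%) lower with RXRa. Among genes above background the split was further apart, 1137 higher (25.4%) and 165 lower (3.68%) of 4480. With library totals in place of TMM, the median of all genes moved from 0.00 to -0.13 and the share of higher genes among those with p under 0.05 from 60.85% to 20.13%. The 4 RXRa libraries lay wholly above the 5 EGFP libraries for 507 genes (1.15%) and wholly below for 634 (1.44%).

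RXRa replicate 1 decided the count of calls. Without it, 5985 of 44366 genes (13.5%) passed the adjusted threshold, 4540 higher (10.2%) and 1445 lower (3.26%). Leaving out any other library gave 0 or 1 call. The replicate left out is the RXRa library with the background nearest to that of the EGFP group, and with silent-gene density as a covariate on all libraries 0 genes passed and 1625 had an unadjusted p under 0.05. In that fit 913 genes were higher (2.08%) and 712 lower (1.62%). Without RXRa replicate 1, the calls among the lists described below were 54 higher of 86 ribosomal protein genes, 51 of 85 respiratory chain genes, 15 of 24 dopamine and cyclic AMP genes, 20 of 60 voltage-gated channel genes, 3 of 5 D2 markers and 4 of 6 D1 markers, against the 10.2% of all genes. Of these 6 lists, 1 gene was lower, in the channel list. In the same fit the share of higher calls varied with level against background. It was 316 of 13384 genes in the class around background and 1559 of 5022 at 2 to 3 times. It was 715 of 2332 at 3 to 5 times and 82 of 312 over 20 times. The 10.2% does not take this into account, and the lists were not compared with genes of like level. On the retinoid target list 0 of 22 passed in either direction. Of 20 activity-induced genes 0 were higher and 2 (Nr4a3 and Bdnf, neither above background) were lower.

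The medians were lowest in genes under 0.5 times background and highest in genes over 20 times, without a steady rise between. The median log2 fold change was -0.11 in 2004 genes under 0.5 times background, -0.07 in the 13384 genes of the class around background, 0.22 in 5022 genes at 2 to 3 times, 0.25 at 3 to 5 times, 0.17 at 5 to 10 times, 0.28 at 10 to 20 times and 0.49 in 312 genes over 20 times. With the covariate the medians ran from 0.00 in the lowest class to 0.14 in the highest. The same classes had medians of -0.12 and 0.76 in D2 nuclei of females and of -0.05 and 0.51 in D1 nuclei of males, lowest and highest.

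**Figure D2:**
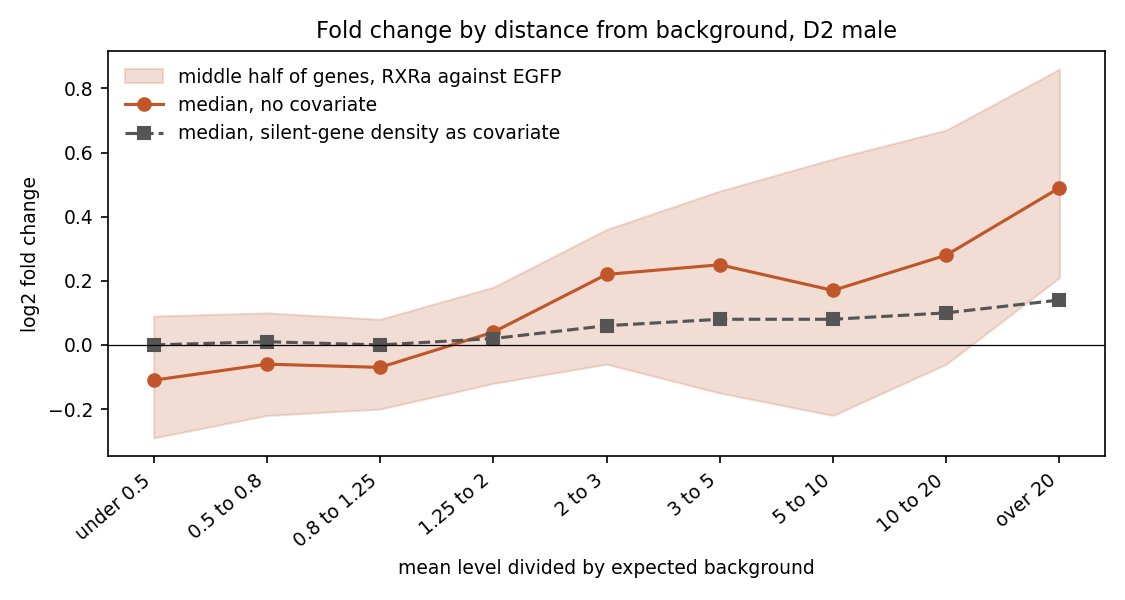
Log2 fold change (RXRa against EGFP, vertical axis) by the ratio of a gene's mean level to its expected background (horizontal axis, 9 classes); circles are class medians, the shaded band is the middle 50% of genes and squares are medians with silent-gene density as a covariate. Medians run from -0.11 to 0.49 without the covariate and from 0.00 to 0.14 with it.

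To set the genes against the background directly, the expected background was subtracted from each library and the remaining counts were scaled again. With limma on log2(value + 1), 4695 genes were tested. These were at least 3 times background over the 9 libraries or over all 35 sorted libraries with a group. What remained was 28.8 to 39.01% of counts in the EGFP libraries and 32.75, 44.24, 49.6 and 58.15% in RXRa replicates 1, 2, 3 and 5. On this scale 3 genes passed (0.0639%), all lower with RXRa, while 161 (3.43%) were higher and 421 (8.97%) lower at an unadjusted p under 0.05. The median of all genes was -0.06. Without subtraction, edgeR on only the 4154 genes at least 3 times background over all 35 sorted libraries, scaled among themselves, had a median of -0.13. That set is not the 4480 genes above background over the 9 libraries. The parts of the subtraction and of the new scaling in the smaller values below were not tested apart. Without RXRa replicate 1 the number was 82 (1.75%), 10 higher and 72 lower, and leaving out any other library gave 0 to 4. Of the 72 lower, 44 were pseudogenes (61.1%, against 32.9% of the genes tested) and 12 protein-coding (16.7%, against 28.6%). Protein-coding genes higher in that fit numbered 7, among them Pdyn, Rtl1, Slitrk1, Srsf1, Nefl and Higd2a, given as those behind a small count.

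The D2 identity genes show what the subtraction and the new scaling did together. Drd2 (ENSMUSG00000032259, chromosome 9, 49340627 to 49408177, plus strand) was at 518.9, 803.6, 843.6, 716.6 and 927 CPM in EGFP replicates 1 to 5 and at 647, 801.9, 1171 and 1501 CPM in RXRa replicates 1, 2, 3 and 5. RXRa replicates 3 and 5 were the highest and replicates 1 and 2 lay inside the EGFP range. Its log2 fold change was 0.43 (SE 0.21, adjusted p = 0.2525 by edgeR, as for other values before subtraction). After subtraction the values were 1820, 1818, 2254, 1648 and 2253 CPM with EGFP and 2225, 1578, 1666 and 2085 with RXRa, and the log2 fold change was -0.06 (SE 0.23, limma adjusted p = 0.9132). The RXRa libraries then spread over the whole EGFP range.

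Penk, the enkephalin precursor, was also highest in RXRa replicates 3 and 5. Its CPM were 188.6, 537.9, 354.4, 521.4 and 357.2 with EGFP and 184, 494.3, 1078 and 850.2 with RXRa, a log2 fold change of 0.73 (SE 0.46, adjusted p = 0.3575) that was 0.09 (SE 0.28, adjusted p = 0.8929) after subtraction. Replicate 1 of either group was the lowest library of its group. Penk overlaps the noncoding gene A830012C17Rik, and the use of strand in counting is not stated, so their reads may be shared. Adora2a had 0.55 (SE 0.26, adjusted p = 0.2427) and 0.10 (SE 0.22, adjusted p = 0.826) after subtraction, and Gpr6, an orphan receptor of D2 neurons, had 0.97 (SE 0.38, adjusted p = 0.1997) and 0.31 (SE 0.28, adjusted p = 0.6043). With RXRa replicate 1 left out, edgeR called Adora2a (0.81, adjusted p = 0.02792) and Gpr6 (1.29, 0.02276) but not Drd2 (0.60, 0.05496) or Penk (1.04, 0.1068). Of the 5 D2 markers tested, 4 (Drd2, Adora2a, Gpr6 and Sp9) were higher at an unadjusted p under 0.05 and none lower, against 12% and 7.72% of all genes and 25.4% and 3.68% of those above background. After subtraction 0 of the 4 that could be tested reached that level, with a median of 0.10.

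Of 6 D1 markers tested in the same libraries, 5 had a positive log2 fold change before subtraction, with Isl1 at 0.07, and Eya1 had a negative one (-0.15). The 4 that could be tested after subtraction, without Isl1 and Eya1, were positive. A difference from the D2 markers was not tested. Drd1, the D1 dopamine receptor, was at 6.835, 15.09, 13.09, 13.83 and 15.1 CPM in the EGFP libraries and at 9.546, 27.15, 38.55 and 28.05 CPM in the RXRa libraries. RXRa replicates 2, 3 and 5 were above every EGFP library, and replicate 1 was below 4 of them. The log2 fold change was 1.01 (SE 0.35, adjusted p = 0.1842), and 0.58 (SE 0.22, unadjusted p = 0.01273, adjusted p = 0.3235) after subtraction. Tac1 had 0.83 (SE 0.33, adjusted p = 0.1997) and 0.38 (SE 0.25, adjusted p = 0.5053). Both were called by edgeR without RXRa replicate 1, Drd1 at 1.29 (adjusted p = 0.01927) and Tac1 at 1.13 (0.02174). Over the 6 D1 markers the median was 0.44. Of the 4 tested after subtraction, 3 (Drd1, Pdyn and Sfxn1) were higher at an unadjusted p under 0.05. On that scale 3.43% of all genes were higher and 8.97% lower. Pdyn (1.955 times) and Sfxn1 (1.448 times) were not above background in the D2 male libraries, so their subtracted values rest on small remainders. They entered this test only through their mean over all 35 sorted libraries, which include D1 nuclei. The count of 3 therefore does not show a change of D1 markers as a set. Pdyn, the dynorphin precursor of D1 neurons, had a mean of 10.38 CPM with EGFP and 16.02 CPM with RXRa and a log2 fold change of 0.62, and of 0.90 (unadjusted p = 0.0003073) after subtraction. Without RXRa replicate 1 the latter was 0.99 (limma adjusted p = 0.04102). The summed level of the D1 list was 145.6 to 172.7 CPM with EGFP and 141.2 to 258.2 CPM with RXRa. Drd1 in the D1 male libraries ranged from 32.18 to 83.65 CPM, so the highest D2 RXRa library reached into the D1 range. In bulk RNA of sorted nuclei, a different share of D1 nuclei and a different amount of the RNA per nucleus cannot be told apart.

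**Figure D3:**
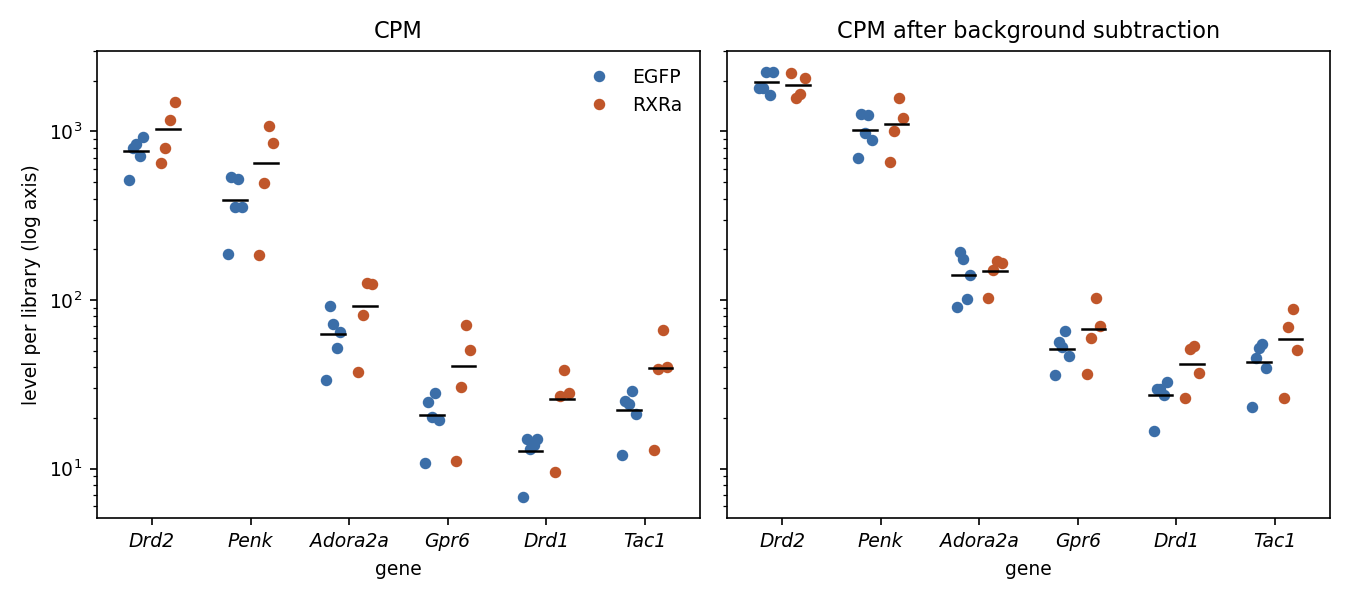
CPM (left) and background-subtracted CPM (right) on a log axis for 4 D2 markers and the D1 markers Drd1 and Tac1; points are libraries, EGFP in blue (n = 5) and RXRa in orange (n = 4), and bars are group means. Drd2 runs from 518.9 to 1501 CPM before subtraction and from 1578 to 2254 after it.

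RXRa acts with partner receptors. On a list of 19 RXR genes and partner receptors, 3 were higher (Rxrb, Thra and Nr1h2) and 1 lower (Nr4a2) at an unadjusted p under 0.05, shares near those of all genes (12% and 7.72%), with a median of 0.07 that turned to -0.08 with library totals, and 3 members were above background. Thra, the thyroid hormone receptor alpha gene, had a log2 fold change of 0.54 (SE 0.24, adjusted p = 0.2246) and 0.18 (SE 0.19, adjusted p = 0.6604) after subtraction, and was called at 0.77 (adjusted p = 0.02949) without RXRa replicate 1. Thra overlaps Nr1d1 on the opposite strand. Rxrg, the RXR form most typical of striatal neurons, was at 44.04, 70.18, 68.82, 55.02 and 69.34 CPM with EGFP and at 42.56, 64.78, 74.91 and 79.48 with RXRa. Its log2 fold change was 0.09 (SE 0.16, adjusted p = 0.792) and turned to -0.28 (SE 0.18, adjusted p = 0.4928) after subtraction and to -0.08 with library totals.

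Retinoid target genes gave no difference at this level. Of 22 genes on the list of retinoid and RXR targets, which includes the retinoic acid hydroxylases Cyp26a1 and Cyp26b1, the binding proteins Crabp1 and Crabp2 and the aldehyde dehydrogenases that make retinoic acid, 0 had an unadjusted p under 0.05 in either direction, against 12% higher and 7.72% lower of all genes. The median was -0.02. Only Rarb, the retinoic acid receptor beta gene, was above background, so at this depth a change of the other 21 could not be seen apart from the background. Rarb (ENSMUSG00000017491, chromosome 14, 16430839 to 16819156, minus strand) was at 529.2, 618, 618.2, 645.3 and 746.4 CPM in the EGFP libraries and at 571.4, 650.9, 1029 and 1097 CPM in the RXRa libraries. RXRa replicates 3 and 5 were above the EGFP range and replicates 1 and 2 within it. The log2 fold change was 0.41 (SE 0.24, adjusted p = 0.3213), 0.08 (SE 0.27, adjusted p = 0.8922) after subtraction and 0.00 with the density covariate. The gene overlaps Gm48162 and Top2b, whose reads may be shared.

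The start of the shorter Rarb transcripts holds a paired hexamer of the kind that RXR and retinoic acid receptors bind, which is shown since Rarb is the classical example. The stretch lies at chr14:16575507-16575535 (GRCm38.p6, minus strand, RefSeq promoter table), 59 to 31 bases upstream of the RefSeq start, within an untranslated first exon of Rarb in GENCODE M21. Capitals mark the match to the motif, 2 hexamer repeats in the same direction with 5 bases of any kind between them (DR5), searched on both strands for the hexamers of this element:
Rarb: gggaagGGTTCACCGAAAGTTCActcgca
These letters occurred in 2 of 32851 RefSeq promoters of the same length (0.00609%). Of the 22 list genes 14 had a promoter in that table, and Rarb was the 1 with a match. The hexamers searched were those of the Rarb element itself, so the match in Rarb was given in advance. Other forms of the paired repeat were not searched, so their presence in other list genes is not known from this search. No library measured binding, and the match is a description of the letters only.

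Liver X receptor targets, which with RXR control cholesterol and fatty acid genes, gave 5 higher (Abcg1, Mylip, Scd2, Fasn and Pltp) and 1 lower (Abca1) of 14 at an unadjusted p under 0.05, against 12% and 7.72% of all genes and 25.4% and 3.68% of those above background, with a median of 0.06 that was -0.06 with library totals. Scd2, a stearoyl-CoA desaturase, had 0.70 (SE 0.30, adjusted p = 0.2145) and 0.22 (SE 0.19, adjusted p = 0.5953) after subtraction, and was called at 0.97 (adjusted p = 0.02814) without RXRa replicate 1. Apoe, made mainly by astrocytes, had 0.05 (SE 0.47, adjusted p = 0.9665) with a sign that changed between fits. Of 12 nuclear receptor coregulators, 7 were higher and 0 lower at an unadjusted p under 0.05, against the same shares, with a median of 0.21, and none was above background.

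Lists of neuronal signalling genes had positive medians that were smaller after subtraction and the new scaling. Of 24 dopamine and cyclic AMP signalling genes, 16 were higher and 0 lower at an unadjusted p under 0.05, against 12% and 7.72% of all genes, with a median of 0.50 against 0.00 for all genes. Of the 24, 14 were above background, and 25.4% of all such genes were higher and 3.68% lower. The 14 had a median of 0.52 before subtraction. After it 0 of 14 reached an unadjusted p under 0.05 and their median was 0.12, against -0.06 for all genes. Arpp21, a cyclic AMP-regulated phosphoprotein of striatal neurons, was at 289.3, 344.9, 362.3, 405.3 and 427.4 CPM with EGFP and at 321.7, 475.5, 677.4 and 634.4 with RXRa. It had a log2 fold change of 0.53 (SE 0.19, adjusted p = 0.1882) and 0.17 (SE 0.16, adjusted p = 0.6143) after subtraction. Ptpn5, the striatum-enriched tyrosine phosphatase, had 0.52 (SE 0.20, adjusted p = 0.1966) and 0.15 after subtraction, and Prkar1a, a regulatory subunit of protein kinase A, 0.62 (SE 0.27, adjusted p = 0.2168) and 0.22. All 3 were called by edgeR without RXRa replicate 1, Arpp21 at 0.70 (adjusted p = 0.02125), Ptpn5 at 0.73 (0.01999) and Prkar1a at 0.85 (0.03199). Of the 16 genes shared by all striatal projection neurons, 7 were higher and 1 lower (Ikzf1), with a median of 0.42. The 10 above background had a median of 0.53, and 0.10 after subtraction.

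The counts of receptor and channel genes that follow stand against 12% higher and 7.72% lower of all genes and 25.4% and 3.68% of those above background. Of 21 G protein-coupled receptor genes of striatal neurons 11 were higher and 0 lower at an unadjusted p under 0.05, with a median of 0.43. The 10 above background had a median of 0.56, and 0.15 after subtraction. Chrm1, the M1 muscarinic receptor, had 0.53 (SE 0.22, adjusted p = 0.2118) and 0.11 after subtraction. Among 60 voltage-gated channel genes 25 were higher and 2 lower (Scn7a and Kcnv2) at an unadjusted p under 0.05, with a median of 0.22. The 14 above background had a median of 0.55. After subtraction none of the 14 reached that p, with a median of 0.15. Cacna1e, a calcium channel pore subunit, had 0.44 (SE 0.16, adjusted p = 0.193), and 0.15 after subtraction. Among 18 ionotropic glutamate receptor genes 9 were higher and 1 lower, Grik1 (median 0.30). The 4 above background had a median of 0.56, and 0.14 after subtraction. Gria2, the subunit that keeps AMPA receptors closed to calcium, was at 433.4 to 688.1 CPM (median 598.3) with EGFP and at 473.8, 794.2, 1230 and 1327 CPM with RXRa, a log2 fold change of 0.74 (SE 0.24, adjusted p = 0.1788). After subtraction it was at 1255 to 1507 CPM with EGFP and at 1495 to 1809 with RXRa, a log2 fold change of 0.25 (SE 0.12, adjusted p = 0.4018). Of 15 GABA-A receptor genes 8 were higher and 1 lower, Gabra6 (median 0.32). The 4 above background had a median of 0.48, and 0.26 after subtraction. Of 8 metabotropic glutamate receptor genes 4 were higher (Grm3, Grm4, Grm5 and Grm7) and 1 lower (Grm8), and Grm5 had 0.54 (SE 0.23, adjusted p = 0.2087) and 0.21 after subtraction. Among the genes given here with a fold change, edgeR without RXRa replicate 1 called Chrm1 (0.74, adjusted p = 0.02517), Cacna1e (0.57, 0.02689), Gria2 (0.96, 0.01694) and Grm5 (0.71, 0.03939).

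Neuropeptide genes included one with a larger value. Cartpt, the CART peptide gene, was at 2.913, 3.197, 3.219, 2.53 and 4.556 CPM in the EGFP libraries and at 2.387, 5.964, 12.5 and 7.868 CPM in the RXRa libraries. RXRa replicates 2, 3 and 5 were above every EGFP library and replicate 1 was below them all. Cartpt had a log2 fold change of 1.07 (SE 0.33, adjusted p = 0.1786), and 0.74 (SE 0.36, unadjusted p = 0.04696, adjusted p = 0.4001) after subtraction. Without RXRa replicate 1 these were 1.39 (edgeR adjusted p = 0.01654) and 1.09 (limma adjusted p = 0.08088). Of the 14 genes on that list 3 were higher (Pdyn, Tac1 and Cartpt) and 0 lower at an unadjusted p under 0.05 (12% and 7.72% of all genes), with a median of 0.21. Sst, the somatostatin gene of interneurons, had 0.95 (SE 0.51, adjusted p = 0.2905) and 0.51 (SE 0.38, adjusted p = 0.5439) after subtraction, and it was the only one of 14 interneuron markers above background, of which 0 were higher and 1 (Kit) lower at an unadjusted p under 0.05.

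Of 86 cytosolic ribosomal protein genes tested, 52 were higher and 0 lower at an unadjusted p under 0.05 (12% and 7.72% of all genes), with a median of 0.57. Of the 50 above background 33 were higher and 0 lower, against 25.4% and 3.68% of all such genes, with a median of 0.65. After subtraction 5 of 51 (Rps21, Rpl28, Rpl27, Rps23 and Rpl8) were higher and 0 lower, with a median of 0.24. On that scale 3.43% of all genes were higher and 8.97% lower. Rps21 had 1.19 (SE 0.38, adjusted p = 0.1788) and 0.73 (SE 0.28, adjusted p = 0.324) after subtraction, and without RXRa replicate 1 it had 1.51 (edgeR adjusted p = 0.01669) and 0.96 (limma adjusted p = 0.06759). Many ribosomal protein genes have near-identical pseudogene copies, so their counts are uncertain. Of 85 nuclear-encoded respiratory chain genes 39 were higher and 0 lower (median 0.39), against 12% and 7.72% of all genes. Of the 25 above background 15 were higher and 0 lower, against 25.4% and 3.68% of all such genes. Their median was 0.48, and 0.17 after subtraction. Mitochondrially encoded genes, which lie outside nuclei, had 0 of 11 in either direction (median 0.14, -0.03 with library totals, and -0.22 for 9 of them after subtraction). Of 8 nuclear-retained long noncoding RNAs 5 were higher (Meg3, Rian, Snhg11, Kcnq1ot1 and Mirg) and 0 lower (median 0.62), against the same shares of all genes. Of the 5 above background 4 were higher and 0 lower, with a median of 0.69, and 0.18 after subtraction. Meg3, the imprinted noncoding RNA of chromosome 12, had 0.70 (SE 0.23, adjusted p = 0.1788) and 0.18 (SE 0.13, adjusted p = 0.5255), and its neighbour Rian 0.78 (SE 0.25, adjusted p = 0.1788) and 0.27 (SE 0.13, adjusted p = 0.4001). Both were called by edgeR without RXRa replicate 1, Meg3 at 0.92 (adjusted p = 0.01669) and Rian at 1.02 (0.01732). Malat1, another abundant nuclear RNA, had -0.31 after subtraction.

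**Figure D4:**
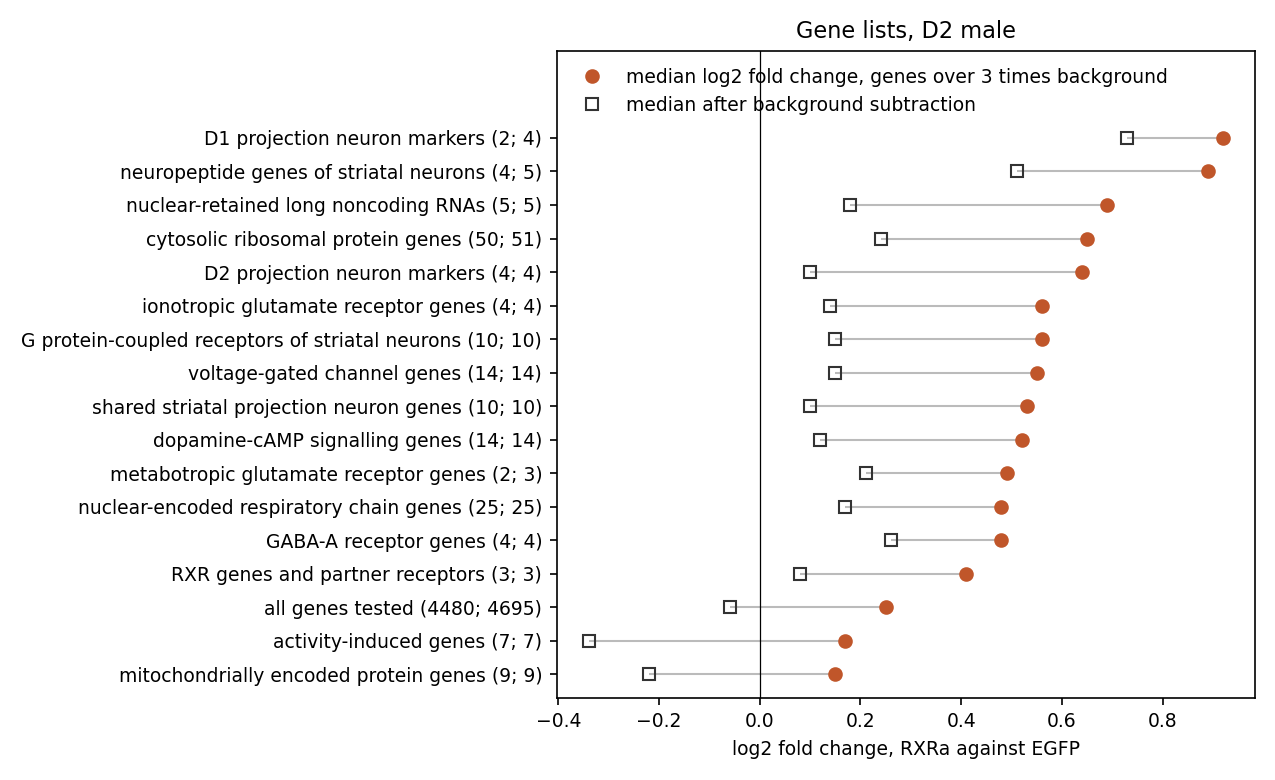
Median log2 fold change (horizontal axis) of each gene list among its genes above background (filled circles) and after background subtraction (open squares), for lists with at least 3 genes tested after subtraction; the numbers of genes for the 2 medians stand in brackets. All genes have medians of 0.25 and -0.06, and the activity-induced list 0.17 and -0.34.

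Activity-induced genes, the transcription factors and effectors that neurons switch on within minutes of firing, had values of both signs. On the list of 20, 10 had a positive and 10 a negative log2 fold change. At an unadjusted p under 0.05, 1 gene was higher (Ier2, itself below background) and 5 were lower (Fos, Npas4, Nr4a2, Nr4a3 and Bdnf), against 12% and 7.72% of all genes, with a median of -0.01. With the density covariate 8 were lower and 1 higher (against 1.62% and 2.08% of all genes), with a median of -0.24. After subtraction 2 (Npas4 and Arc) of the 7 that could be tested were lower and 0 higher, against 8.97% and 3.43% of all genes on that scale. The median of these 7 was 0.17 before subtraction and -0.34 after it, against -0.06 for all genes on that scale. None passed an adjusted p of 0.05.

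Npas4 (ENSMUSG00000045903, chromosome 19, 4984355 to 4990316, minus strand), a neuron-specific transcription factor induced by calcium entry, was at 8.516, 13.31, 12.88, 19.45 and 13.11 CPM in EGFP replicates 1 to 5. It was at 5.745, 11.2, 8.658 and 8.961 CPM in RXRa replicates 1, 2, 3 and 5. The groups overlapped only through EGFP replicate 1, and edgeR gave -0.63 (SE 0.26, adjusted p = 0.2077) on the log2 scale. After subtraction Npas4 was at 20.11, 23.8, 27.17, 39.22 and 25.8 CPM with EGFP and at 9.74, 17.57, 8.485 and 9.316 with RXRa. These groups did not overlap, which on this scale held for 74 genes in that direction (1.58%) and 36 in the other (0.767%). The log2 fold change was -1.22 (SE 0.27, limma adjusted p = 0.07557). Leaving out 1 library in turn kept it between -1.44 and -1.08, and it passed in 3 of these 9 fits, without EGFP replicate 1 (adjusted p = 0.04938), RXRa replicate 1 (0.04378) or RXRa replicate 2 (0.03088). It did not pass in the other 6, with an adjusted p of 0.1007, 0.1624, 0.1469 and 0.1109 without EGFP replicates 2, 3, 4 and 5 and of 0.4376 and 0.4005 without RXRa replicates 3 and 5. On the unsubtracted scale it was -0.43 without EGFP replicate 4 and -0.46 without RXRa replicate 1.

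Arc, whose product removes AMPA receptors from synapses, was at 20.23, 27.37, 27.61, 44.63 and 32.26 CPM after subtraction with EGFP and at 1.514, 25.42, 10 and 9.885 with RXRa. RXRa replicate 2 lay within the EGFP range and the other 3 below it, with a log2 fold change of -1.69 (SE 0.50, limma adjusted p = 0.2393), and -1.06 without RXRa replicate 1. On the unsubtracted scale it was -0.70 (SE 0.41, adjusted p = 0.3316), -0.35 without RXRa replicate 1 and -0.47 without EGFP replicate 4. Fos and Nr4a3 were below 3 times background and are named after their values were seen. Nr4a3 was at 29.02 to 47.82 CPM with EGFP and at 21.53 to 27.18 with RXRa, without overlap, a log2 fold change of -0.55 (SE 0.15, adjusted p = 0.1715) that passed without RXRa replicate 1 (-0.61, adjusted p = 0.02393). Fos had -0.68 (SE 0.26, adjusted p = 0.1943), and -0.37 without EGFP replicate 4. Not every member was lower: Egr3 had 0.41 (SE 0.31, adjusted p = 0.45), Per1 0.35 (SE 0.22, adjusted p = 0.3579) and Homer1 0.23 (SE 0.22, adjusted p = 0.5695), with -0.02, 0.04 and -0.17 after subtraction.

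**Figure D5:**
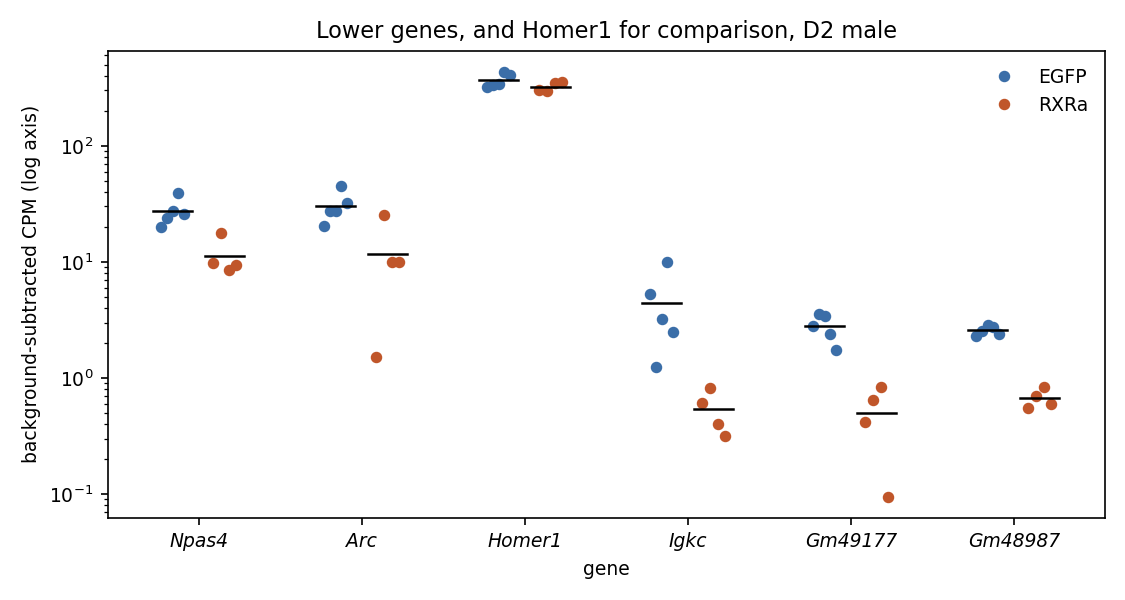
Background-subtracted CPM per library on a log axis for Npas4, Arc, Homer1, Igkc, Gm49177 and Gm48987, EGFP in blue (n = 5) and RXRa in orange (n = 4), with group means as bars. Npas4 ranges from 20.11 to 39.22 with EGFP and from 8.485 to 17.57 with RXRa, while the Homer1 groups overlap.

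Nr4a3, Npas4 and Fos had the lowest p-values of the list with the covariate, and their promoters are shown because all 3 hold the same short element. TGACG, the core of the cyclic AMP response element, was searched on both strands of the RefSeq promoters (GRCm38.p6, 250 bases before to 50 after the start). It was found in 13 of the 14 activity-induced genes with a promoter in that table and in 20.8% of all 32851 promoters. Capitals mark TGACG or, on the opposite strand, CGTCA:
Npas4: cgttcgaCGTCAcgggaTGACGtcggaag
Nr4a3: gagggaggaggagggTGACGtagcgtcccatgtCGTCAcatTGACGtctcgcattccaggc
Fos: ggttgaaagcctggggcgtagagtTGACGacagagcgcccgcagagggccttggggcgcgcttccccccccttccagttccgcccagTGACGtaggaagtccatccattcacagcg
The Npas4 stretch lies at chr19:4990129-4990157 on the minus strand, within the first exon of the longer GENCODE M21 transcript. The Nr4a3 stretch lies at chr4:48045059-48045119 and the Fos stretch at chr12:85473737-85473852, both on the plus strand and upstream of the annotated exons. Npas4 has 2 sites, starting 179 and 169 bases upstream of the RefSeq start, Nr4a3 has 4 of which 3 are shown, and Fos has 2, at 129 and 66 bases. The element is common to the list whether a member was lower or not, as Egr4, Homer1 and Per1 also hold it.

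The 3 genes that passed after subtraction were all lower with RXRa and of low level. Igkc (ENSMUSG00000076609, overlapping Gm30211), the kappa light chain constant region of antibodies, was at 1.681, 0.8177, 1.431, 4.427 and 1.248 CPM with EGFP and at 0.442, 0.6303, 0.527 and 0.4371 with RXRa, without overlap. Its log2 fold change by edgeR was -1.85 (SE 0.44, adjusted p = 0.1475), and -1.62 (SE 0.32, limma adjusted p = 0.02567) after subtraction. The call rested on single libraries, with -1.31 (limma adjusted p = 0.1015) without EGFP replicate 4, which held the highest level, and no call without EGFP replicate 1 or 3 or RXRa replicate 3 or 5. It was the only one of 9 blood cell markers tested that was above background. Ptprc was also lower at an unadjusted p under 0.05, as were 7.72% of all genes. The summed level of that list was 96.12 to 116.2 CPM with EGFP and 78.46 to 106.4 CPM with RXRa. The part of blood cells in the value of Igkc was not tested. The other 2 are processed pseudogenes, named after their values were seen. Gm49177 had -1.34 (SE 0.24, limma adjusted p = 0.009012) and Gm48987 -1.10 (SE 0.22, limma adjusted p = 0.02655), at means of 1.231 and 1.078 CPM with EGFP and 0.4414 and 0.4723 CPM with RXRa. Gm49177 kept its call without any 1 library except EGFP replicate 3 (adjusted p = 0.05143) and RXRa replicate 5 (0.08893), while Gm48987 kept it only without EGFP replicate 1 or RXRa replicate 1. Both had a mean of 0 CPM in the bulk GFP libraries, and their gene bodies are 0.38 kb (Gm49177) and 0.222 kb (Gm48987). The yardstick genes were 5 kb or longer, so the expected background of genes this short, and of Igkc (0.532 kb), is uncertain. Reads of such copies also cannot be told from those of their parent genes. Whether their counts are RNA or background was not tested. The same 3 genes were called by edgeR when only genes at least 3 times background over all 35 sorted libraries entered the fit.

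Among genes whose groups did not overlap, 30 above background were wholly higher with RXRa (0.67% of 4480) and 50 wholly lower (1.12%). Slc35f3, a putative thiamine transporter gene on chromosome 8 (126298558 to 126395482, plus strand), was the only protein-coding gene that met the naming rule for a rise. It was at 250.3, 208.7, 248.9, 240.9 and 258.1 CPM with EGFP and at 263.5, 276.1, 349.4 and 333.4 with RXRa, a log2 fold change of 0.34 (SE 0.14, adjusted p = 0.2102) that was -0.01 after subtraction. Of other genes, the noncoding RNA 5430431A17Rik on chromosome 7 (44473538 to 44486138, plus strand) was at 25.1, 16.58, 21.18, 27.03 and 21.53 CPM with EGFP and at 38.63, 50.91, 33.35 and 34.24 with RXRa. Here RXRa replicate 1 was the second highest library, with 0.82 on the log2 scale (SE 0.16, adjusted p = 0.132 by edgeR and 0.03349 by DESeq2), 0.83 without RXRa replicate 1 (edgeR adjusted p = 0.01654), 0.73 with the density covariate and 0.64 (SE 0.32, adjusted p = 0.4035) after subtraction. It had 0.16 in D2 female and -0.15 in D1 male nuclei, and the difference from D1 male had an unadjusted p of 0.0001614 and an adjusted p of 0.7981. The small nucleolar RNA gene Gm23787, close to Rian on chromosome 12, had 1.15 (SE 0.34, adjusted p = 0.173), and 2900064K03Rik, inside Kcnip4, 0.92 (SE 0.33, adjusted p = 0.1873). The pseudogenes Gm3963 and 1700049L16Rik had -0.95 (SE 0.25, adjusted p = 0.1618) and -0.74 (SE 0.30, adjusted p = 0.2034). Gene bodies are 0.073 kb for Gm23787, 0.448 kb for Gm3963 and 0.543 kb for 1700049L16Rik. The expected background of genes this short is uncertain. Without RXRa replicate 1, edgeR called Gm23787 (1.35, adjusted p = 0.02035), 2900064K03Rik (1.09, 0.03518) and Gm3963 (-1.17, 0.01797).

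Interferon-response genes, which report a reaction to virus, gave 0 higher and 2 lower (Ifi27 and B2m) of 21 at an unadjusted p under 0.05. The shares of all genes were 12% higher and 7.72% lower. The median of the list was -0.12, and none was above background. At this depth a difference between the vectors in that list was not detectable.

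The male D2 values were set beside those of D2 nuclei from females and D1 nuclei from males that received the same vectors. No gene passed an adjusted p of 0.05 for a difference of the RXRa effect from D2 female (0 of 43902, 0%, with 1327 at an unadjusted p under 0.05, 3.02%) or from D1 male (0%, with 2666, 6.07%), by edgeR, and DESeq2 and limma voom also gave 0 in each. Across genes, which are not independent replicates, the fold changes of male and female D2 nuclei had a Pearson r of 0.54, and 0.63 after subtraction over 4695 genes. Those of male D2 and D1 nuclei had 0.27 and 0.39. The dopamine and cyclic AMP list had medians of 0.50 in D2 male, 0.62 in D2 female and 0.21 in D1 male, and the ribosomal list 0.57, 0.51 and 0.27. For the activity-induced list they were -0.01, 0.13 and -0.07. Npas4 had -0.63 in D2 male, 0.57 in D2 female and 0.06 in D1 male, and the male minus female difference had an unadjusted p of 0.00284 and an adjusted p of 1. Nr4a3 had -0.55, 0.20 and -0.13, with an unadjusted p of 0.001767 and an adjusted p of 1 for the same difference.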

How the data were processed

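Nuclei sorted as D2 were profiled by ribosomal-RNA-depleted total RNA sequencing with a low-input stranded kit and paired reads of 150 bp, per the labels' protocols. The authors deposited raw counts, 1 whole number for each gene and library. The submitters' processing notes name FastQC, Trimmomatic, HISAT2, Picard, featureCounts, Subread and the build GRCm38, and give no versions. The annotation release and the use of strand are not given in the sources used here.

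Here edgeR 4.0.16 (quasi-likelihood, TMM, filterByExpr, Benjamini-Hochberg, threshold 0.05) was fitted to the 35 sorted libraries that have a group, as 8 groups sharing an estimate of the spread. The vector entries were left out. 1 library with conflicting labels was left out. GENCODE M21 matched 55394 of 55487 gene identifiers. Standard errors were derived from the fold change and F. Background-subtracted values used limma 3.58.1 with trend and a pseudocount of 1, so fold changes of low genes are understated. DESeq2 and limma voom were alternatives. Single values used exact permutation tests. Tests were checked on simulated data. No 2 replicates agreed within sampling noise (chi-square per degree of freedom 2.299 to 35.43 over 16 pairs).

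Named genes were Rxra, the markers, up to 3 genes per list and direction with the smallest p among those above background with a mean CPM of at least 1, and non-overlapping genes with the largest change. The members and the 28 lists were chosen with earlier results of these data known. Some genes that met this rule are not reported here.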

Additional observations from a re-analysis of the deposited data

Results flagged for a closer look

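Of 123 sets of values from 1 group, 8 held a library whose gap to its nearest neighbour exceeded the Dixon critical value for the group's size, all in the EGFP group, and chance gives about 1 in 20. EGFP replicate 4 was the high library in 5 of them. It had 57.55 CPM of Apoe against 4.981 to 13.52 in the other EGFP libraries, 102.7 CPM of mt-Co1 against 23.98 to 46.31, and 7.035 CPM of Sst against 3.148 to 3.568. It also had 4.427 CPM of Igkc against 0.8177 to 1.681 and 3.083 CPM of Rps21 against 1.487 to 1.872. EGFP replicate 1 was the low library for Drd1, at 6.835 CPM against 13.09 to 15.1, and for Ptpn5, at 73.73 CPM against 99.37 to 106.4. EGFP replicate 2 was the high library for 1700049L16Rik, at 2.007 CPM against 0.8585 to 1.123.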

How the results depend on the processing

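No call was made in the D2 male comparison with RLE size factors, library totals, no filter, a mean CPM of at least 1, a robust fit, the 9 libraries alone, the density covariate or only genes at least 5 times background. The number of genes called was 23 with DESeq2, 1 with limma voom, 3 with background subtraction, 3 with only genes at least 3 times background and 5 at least 2 times, the last chosen after seeing the data as was 5 times. In the fits limited to genes at a multiple of background, that multiple was taken over all 35 sorted libraries. Leaving out 1 library gave 0 to 5985 calls, the highest without RXRa replicate 1, and 1 each without EGFP replicate 3 (Pou4f3) and without RXRa replicate 3 (Gm49177). The difference from D1 male gave 6 calls with only genes at least 5 times background. The cause of these differences was not tested.

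Replicate numbers 1, 2, 3 and 5 were shared, and their deviations correlated at 0.644, -0.302, -0.164 and 0.214. The best EGFP partner had the same number for RXRa replicates 1 and 5 and another number for replicates 2 and 3. So few values cannot decide whether the numbers pair the samples. With the replicate block 0 genes were called and 6441 had an unadjusted p under 0.05, against 8657. In a paired permutation with the replicate block, whose smallest p is 0.125, the difference was 8.24 for vector RXRa (p = 0.125), 0.15 for vector GFP and -0.20 for silent-gene density (p = 0.125). Leaving out 1 library gave -0.43 to 0.33 for vector GFP, 0.15 without EGFP replicate 4 and 0.33 without RXRa replicate 1, and -0.27 to -0.15 for the density, whose exact p rose to 0.05714 without EGFP replicate 1, 2, 3 or 4 and to 0.07143 without RXRa replicate 5.

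The direction turned for Apoe (-0.12 with library totals, -0.18 with the covariate, -0.06 after subtraction, and -0.49 to 1.08 leaving out 1 library), for Rxrg (-0.08, -0.22, -0.28, and -0.03 to 0.25) and for Drd2, Egr3 and Homer1 (-0.02, -0.18 and -0.17 with the covariate, -0.06, -0.02 and -0.17 after subtraction). Per1 was -0.07 with the covariate, and Slc35f3 -0.01, mt-Co1 -0.16, mt-Cytb -0.17 and mt-Nd6 -0.11 after subtraction. Leaving out 1 library gave -0.16 to 0.78 for mt-Co1, -0.16 to 0.70 for mt-Cytb and -0.11 to 0.72 for mt-Nd6, the lowest without RXRa replicate 3 and the highest without EGFP replicate 4, and -0.13 to 0.05 for Rxra.

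The subtracted comparison without each library was added after seeing the data. It gave 0 to 82 calls, -0.14 to 0.03 for Drd2 and -0.10 to 0.31 for Penk, the extremes of Drd2 being without RXRa replicates 1 and 2 and those of Penk without RXRa replicates 3 and 1.

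Over 57 named genes, 428 of 452 values from alternatives on all libraries kept direction and side of the threshold, 7 passed it and 17 turned. Without RXRa replicate 1, 37 of 57 named genes passed it. Genes near background and genes with under 3 counts cannot be resolved at this depth.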
